A study of Mus musculus with 2 samples.

Results

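The Rnf genes are the mouse genes named for the RING finger, a small zinc-binding fold through which most ubiquitin ligases work. They were taken by symbol, as protein-coding RefSeq genes of the mm10 genome whose name is Rnf followed by a number, with Rnf7 left out. The rule gave 82 genes among 21000 protein-coding genes, and the RefSeq descriptions of all 82 hold the words ring finger. The question asked here is which of them carried NRF1 at the promoter in skeletal muscle.

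The study examined how the glucocorticoid receptor, the demethylase LSD1 and the transcription factor NRF1 act on shared target genes in muscle, and it mapped NRF1 by chromatin immunoprecipitation and sequencing (ChIP-seq). The series holds 2 libraries, both labelled as NRF1 immunoprecipitates of wild-type skeletal muscle and their labels give no treatment, age or sex; the study describes its mice as male C57Bl/6J. Against its label, replicate 2 is listed as input DNA in the reporting summary of the study. Only 1 list of 3226 peaks was analysed, whose peak names carry the title of replicate 1, so no value below has a replicate error, and read depth is unknown.

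Ubiquitin reaches its substrates through an activating enzyme, a conjugating enzyme and a ligase. The ligase chooses the substrate, and a RING ligase holds the loaded conjugating enzyme next to it. Muscle uses this system to break down contractile proteins during atrophy, besides the housekeeping tasks that all cells share. NRF1, nuclear respiratory factor 1, binds GC-rich palindromic DNA near transcription starts and is best known for genes of mitochondrial respiration.

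NRF1 occupied the promoters of 21 of the 82 Rnf genes, or 25.6% (Wilson 95% interval 17.4 to 36%), whereas 13.4% of all protein-coding genes had a promoter peak. A promoter ran from 1000 bp before to 100 bp after any known RefSeq start, and a gene was counted when the summit of a peak, its point of highest signal, lay inside. The interval covers counting over genes only, and related genes are not independent. Of these, 20 are described by name, Rnf5, Rnf8, Rnf14, Rnf19b, Rnf24, Rnf32, Rnf40, Rnf44, Rnf111, Rnf113a2, Rnf114, Rnf123, Rnf126, Rnf130, Rnf138, Rnf145, Rnf149, Rnf167, Rnf170 and Rnf216. The other 61 genes had no promoter peak, which at unknown depth does not separate a weak site from an unoccupied one.

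The sequences under these summits are shown for the copies of the NRF1 palindrome that they hold. The palindrome searched was GCGCATGCGC, on both strands, with at most 1 mismatch, within 100 bp of the summit. Rnf113a2 was the only member with an unchanged copy at its summit, 1 of 21 peaks or 4.76%, beside 10.9% of all 2607 promoter peaks. It held 2 such copies that overlap by 4 bases. All sequences below are from RefSeq GRCm38, the assembly of mm10, on the strand of the gene and from 5′ to 3′, with the best copy of the palindrome in capitals. The stretch of Rnf113a2 (chr12:84417162-84417210, plus strand) ends 10 bp after the start, and its capitals are the 2 overlapping copies.
Rnf113a2: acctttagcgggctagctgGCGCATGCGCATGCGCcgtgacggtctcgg

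Most of the other copies differed from the palindrome at 1 of the central bases. The change is written as the base of the palindrome, its position counted from 1 at the 5′ end on the strand of the gene, and the base found. One shared form, GCGCACGCGC or on the opposite strand GCGCGTGCGC, was the copy nearest the summit at Rnf8, Rnf114, Rnf123, Rnf130 and Rnf149. It is shown for Rnf130 (T6C, chr11:50024945-50024974, plus strand), Rnf8 (T6C, chr17:29614774-29614803, plus strand) and Rnf149 (A5G, chr1:39577399-39577428, minus strand), whose folds were the highest of the 5.
Rnf130: agcgcctattGCGCACGCGCagcggacggg
Rnf8: gcctcccgctGCGCACGCGCactgcccgcc
Rnf149: ccctccaggtGCGCGTGCGCcgcgggtccg

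A second form, GCGCAGGCGC or GCGCCTGCGC, was found at Rnf19b, Rnf24, Rnf145 and Rnf216. It is shown for Rnf145 (T6G, chr11:44518910-44518939, plus strand) and Rnf24 (A5C, chr2:131352988-131353017, minus strand). Changes nearer the ends of the palindrome were found at the remaining 3 genes with 1 mismatch, Rnf111 (G3A, chr9:70503835-70503864, minus strand), Rnf5 (G9T, chr17:34604012-34604041, minus strand) and Rnf32 (C2A, chr5:29195972-29196001, plus strand).
Rnf145: gcgagctcgcGCGCAGGCGCagagcgcgcg
Rnf24: aagggacgccGCGCCTGCGCacttgccgac
Rnf111: tccctggcccGCACATGCGCagacatactg
Rnf5: cccgcttattGCGCATGCTCattcttccgt
Rnf32: ggggacctgcGAGCATGCGCactgagagcc

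In all, 13 of the 21 Rnf peaks, or 61.9% (Wilson 95% interval 40.9 to 79.2%), held the palindrome with at most 1 mismatch within 100 bp of the summit. Among all 2607 promoter peaks the share was 65.9%, inside that interval. Windows of the same length around all 26242 starts of protein-coding genes held it in 6.76% of cases. The first shared form was the nearest copy at 5 of the 21 Rnf peaks and at 13.9% of all promoter peaks, and the second at 4 of the 21 and at 21.2%. The distance between copy and summit had a median of 11.5 bp and a maximum of 34.5 bp over the 13 peaks, and a median of 13.5 bp over all promoter peaks with the motif. Rnf40 and Rnf170 had a copy with 1 mismatch elsewhere in the peak, so 15 of the 21 peaks held one somewhere.

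Fold enrichment is the authors' ratio of ChIP signal at the summit to the control background. Over the 21 Rnf peaks it had a median of 10.7 and quartiles of 8.03 and 13.9, with the lowest value, 4.72, at Rnf14. All promoter peaks had a median of 11.1, quartiles of 7.90 and 16.4, and a maximum of 49.9. Of the Rnf peaks, 8 lay above the overall median. Rnf111, with a fold of 18.4, was at the 83.2nd percentile of all promoter peaks. The 13 Rnf peaks with a copy of the palindrome near the summit had a median fold of 11.1 (5.82 to 18.4) and the 8 without one of 7.46, but the range of the 8 was wider at both ends, so the groups overlapped. All promoter peaks gave 12.9 with a copy and 8.58 without. At all promoter peaks the best copy had 2 mismatches in 25% of cases and 3 in 8.32%. The 5 Rnf peaks of the first shared form ranged from 10.7 to 18.1 and the 4 of the second from 8.66 to 13.9, so the ranges overlapped.

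**Figure D1:**
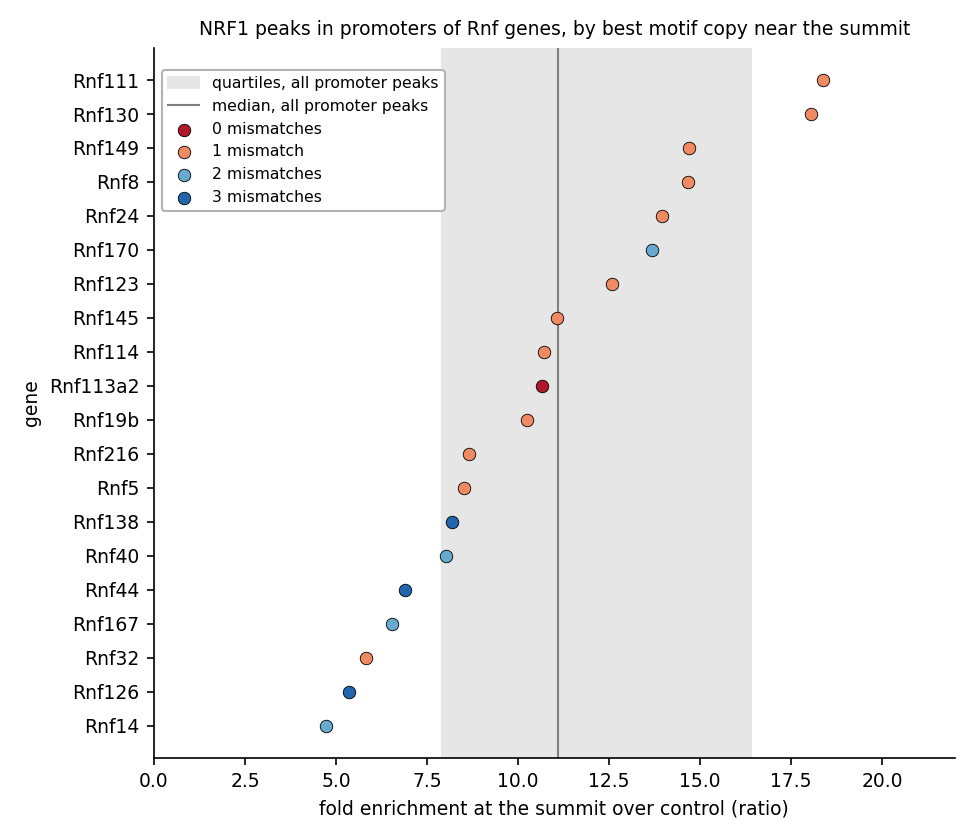
Fold enrichment (x axis, ratio) of the NRF1 peak nearest the start of each of 20 Rnf genes with a promoter peak (y axis), coloured by the number of mismatches in the best copy of the palindrome within 100 bp of the summit. The grey band and line are the quartiles (7.90 and 16.4) and the median (11.1) of all 2607 promoter peaks, and Rnf111 and Rnf130 are the genes plotted above the band.

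The summits lay close to the starts, as those of all promoter peaks did. Relative to the nearest start of the gene itself, the median Rnf summit was at -67.0 bp, with quartiles of -151 and -5 bp. For all promoter peaks, measured to the nearest start of any gene with that promoter, the median was -50.0 bp. Of the 21 summits, 14 were within 100 bp of the start, or 66.7%, beside 71.2% of all promoter summits. Before the start lay 16 of the 21, but the promoter window itself reaches farther before a start than after it. Rnf5 and Rnf130 were the farthest, with summits 451 and 381 bp before the start, and both held a copy with 1 mismatch there. Rnf32 was the farthest after the start, at 27 bp. Summits of Rnf14, Rnf32, Rnf40, Rnf113a2, Rnf167 and Rnf216 were in an annotated exon, that of Rnf167 in an exon of its divergent neighbour Slc25a11.

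**Figure D2:**
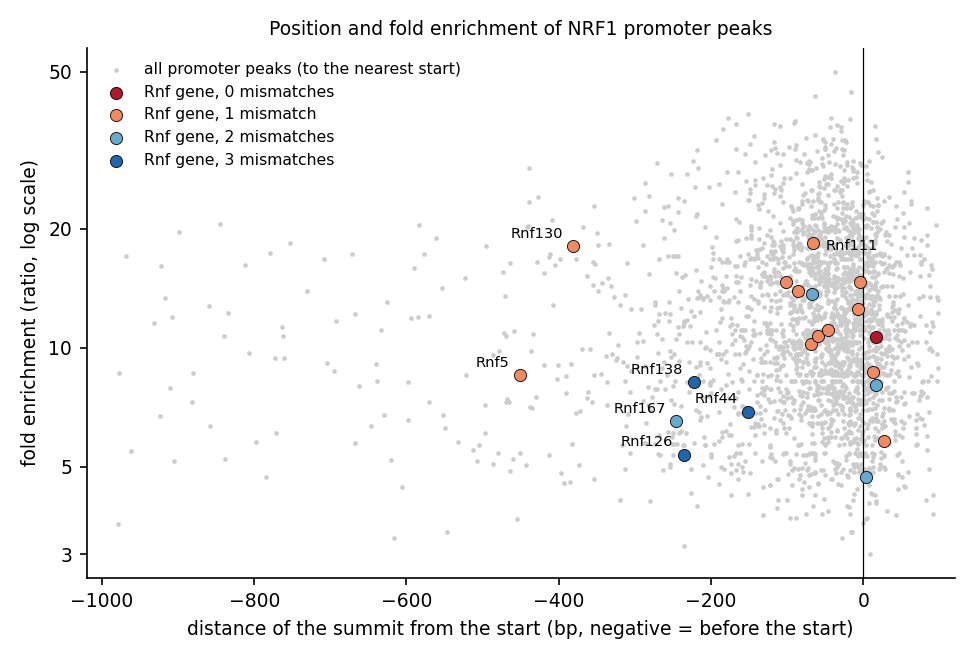
Distance of the summit from the start (x axis, bp, negative before the start) and fold enrichment (y axis, ratio on a log scale) for 20 Rnf genes, measured to the nearest start of the gene itself, over all 2607 promoter peaks in grey, measured to the nearest start. Rnf5, at -451 bp, and Rnf130, at -381 bp, stand apart from the other Rnf genes plotted, of which none lies more than 246 bp from its start.

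The Rnf genes were ordered by what their products do. The counts of these small groups stand beside a promoter peak at 13.4% of all protein-coding genes and at 24.3% of those with a CpG-rich start, that is, one high in both GC content and CpG. A CpG-rich start was present in 10 of 11 nuclear genes, 6 of 10 of the endoplasmic reticulum and 7 of 10 of endosomes, lysosomes and the plasma membrane. It was present in 8 of 8 RING-between-RING genes, 11 of 14 cytosolic, immune and signalling genes, 3 of 7 germ cell genes and 12 of 22 in no group. The part of CpG content in the counts by role was not tested. Of 11 genes of chromatin, DNA repair and the nucleus, 5 had a promoter peak. Rnf111, or Arkadia, which targets SUMO-modified proteins and inhibitors of TGF-beta signalling, had a fold of 18.4 with its summit 66 bp before the start. Rnf8, which is recruited to DNA double-strand breaks, had a fold of 14.7 with its summit 5 bp before the start. Both lay above the median of all promoter peaks. The spliceosome-associated Rnf113a2 had a fold of 10.7, near the middle of the family, although it was the member with exact copies of the palindrome. Rnf138, a ligase of DNA end resection, had a fold of 8.18, and 3 mismatches were the fewest near its summit.

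Rnf40 monoubiquitylates histone H2B together with Rnf20. Its peak was the widest of the Rnf promoter peaks, 633 bp, with a fold of 8.03. No Rnf20 promoter peak was called. The nuclear genes without a promoter peak were Rnf20, Rnf2, the catalytic subunit of Polycomb repressive complex 1, the SUMO-targeted ligase Rnf4, the histone H2A ligase of DNA breaks Rnf168, its relative Rnf169, and Rnf113a1.

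Of 10 ligases of the endoplasmic reticulum, 3 had a promoter peak. Rnf170, which removes activated inositol trisphosphate receptors, the calcium release channels of that membrane, had a fold of 13.7 and a −log10 q of 42.0. The sterol-responsive Rnf145 had a fold of 11.1, and Rnf5, which marks misfolded proteins for degradation, had one of 8.52. Their relatives Rnf139 and Rnf185 had no promoter peak, nor did Rnf26, Rnf103, Rnf121, Rnf183 and Rnf186.

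Among 10 ligases of endosomes, lysosomes and the plasma membrane, 3 had a promoter peak. Rnf130 had a fold of 18.1, Rnf149 of 14.7 and Rnf167 of 6.53. Rnf149 held 2 copies with 1 mismatch near its summit, and Rnf167 held none. Rnf11, Rnf13, Rnf128 and Rnf150 had no promoter peak, nor did Rnf43, which removes Wnt receptors from the cell surface, the lysosomal Rnf152, and Rnf215.

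Of 8 RING-between-RING ligases, which pass ubiquitin through a cysteine of their own, 3 had a promoter peak. Rnf19b had a fold of 10.2 and Rnf216 of 8.66, each with 1 copy with 1 mismatch. Rnf14, which binds the androgen receptor, had the lowest fold of the family, 4.72, with a −log10 q of 5.90. Rnf31, the catalytic subunit of the linear ubiquitin assembly complex, had none, nor had Rnf19a, Rnf144a, Rnf144b and Rnf217.

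The 14 cytosolic, immune and signalling ligases held 3 genes with a promoter peak. Rnf123, a ligase of the cell cycle inhibitor p27, had a fold of 12.6 with its summit 7 bp before the start. Rnf114, a ligase with zinc fingers, had one of 10.7. Rnf126, which acts on misfolded proteins held by the chaperone BAG6, had one of 5.36, with a −log10 q of 5.42 and no copy with fewer than 3 mismatches near the summit. The RIG-I ligases Rnf125 and Rnf135 had no promoter peak, and neither had Rnf6, Rnf25, Rnf34, Rnf41, Rnf115, Rnf146, Rnf166, Rnf213 and Rnf220.

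In the group of 7 germ cell genes, 1 had a promoter peak, Rnf32. It had a fold of 5.82 and the lowest −log10 q of the family, 4.70. Rnf17, Rnf133, Rnf148, Rnf151, Rnf212 and Rnf212b had none. Of the 22 genes put in no group, 3 had a promoter peak, among them Rnf24 (fold of 13.9) and Rnf44 (6.89). The 19 without one were Rnf10, Rnf39, Rnf112, Rnf122, Rnf138rt1, Rnf141, Rnf157, Rnf165, Rnf180, Rnf181, Rnf182, Rnf187, Rnf207, Rnf208, Rnf214, Rnf222, Rnf223, Rnf224 and Rnf225.

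**Figure D3:**
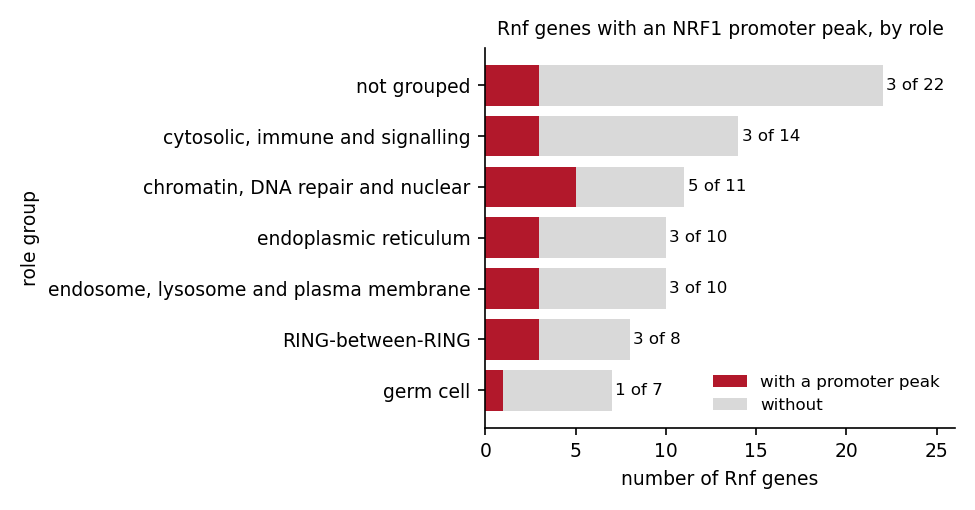
Number of Rnf genes (x axis) in each role group (y axis), with the genes that had an NRF1 promoter peak in red and the rest in grey. The 11 nuclear genes include 5 with a peak, while 1 of 7 germ cell genes and 3 of 22 genes in no group have one, and CpG-rich starts, at which 24.3% of all genes have a peak, are present in 10, 3 and 12 genes of these groups.

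The members include 18 pairs of close relatives, whose 36 genes held 15 with a promoter peak, or 41.7%, beside 25.6% of all Rnf genes and 13.4% of all protein-coding genes. The pairs were listed with the peaks known, so nothing is read from this share. Of the 18 pairs, 11 had a peak at 1 gene of the pair, 2 had one at both and 5 at neither. Rnf130 and Rnf149 were such a pair with a peak at both. The 11 split pairs were Rnf5 over Rnf185, Rnf19b over Rnf19a, Rnf40 over Rnf20, Rnf126 over Rnf115, Rnf114 over Rnf166, Rnf138 over Rnf125, Rnf167 over Rnf13, Rnf111 over Rnf165, Rnf145 over Rnf139, Rnf24 over Rnf122 and Rnf113a2 over Rnf113a1. In 8 of these 11 the occupied gene held a copy with at most 1 mismatch in its promoter and the other gene did not. Over the whole family, 15 of the 21 genes with a peak and 3 of the 61 without held such a copy, so the count says nothing particular to the pairs. At Rnf126, Rnf138 and Rnf167 neither gene of the pair held one, and at Rnf130 and Rnf149 both did.

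Several of the peaks were shared with a neighbour. The Rnf170 summit also lay 77 bp before a start of Hook3, on the opposite strand. The Rnf40 summit lay at -120 bp from a start of Ccdc189, also on the opposite strand, and that of Rnf167 was 50 bp after the start of Slc25a11, a mitochondrial carrier. At Rnf8 the noncoding gene Gm28043 has the same start. Occupancy at these 4 promoters cannot be assigned to the Rnf gene alone.

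Base composition at the start moved with the presence of a peak, in the Rnf genes and in all genes. A start was called CpG-rich when the 200 bp on either side had a GC content of at least 55% and a ratio of observed to expected CpG of at least 0.65. Of the 82 Rnf genes, 57 had such a start, or 69.5%, against 49.5% of all protein-coding genes. Among these 57, 19 had a promoter peak, or 33.3% (Wilson 95% interval 22.5 to 46.3%), beside 24.3% of all CpG-rich genes, a share inside the interval. The other 25 Rnf genes included 2 with a promoter peak, Rnf113a2 and Rnf167, or 8% (2.22 to 25%), beside 2.69% of all such genes. At the most CpG-rich start, the median CpG ratio was 0.958 in the 21 Rnf genes with a peak and 0.766 in the 61 without. In all protein-coding genes it was 0.898 with a peak and 0.601 without. The part of CpG content in the overall share was not tested.

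**Figure D4:**
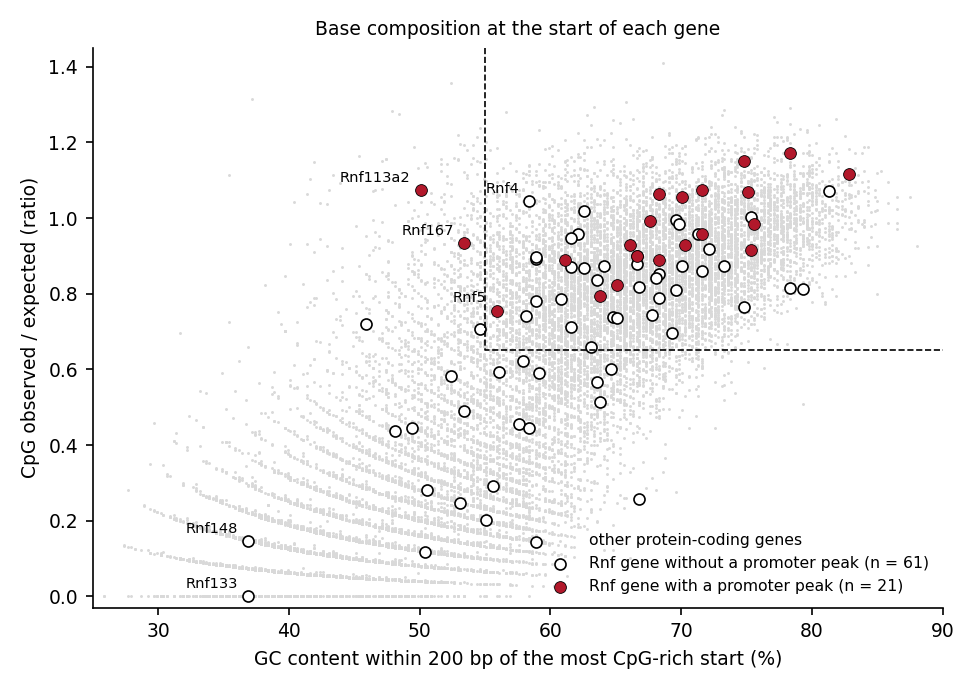
GC content (x axis, %) and ratio of observed to expected CpG (y axis) within 200 bp of the most CpG-rich start of each gene, for the 21 Rnf genes with an NRF1 promoter peak (red), the 61 without (white) and the other protein-coding genes (grey). The dashed lines mark the limits for a CpG-rich start, and the only red points outside them are Rnf113a2 and Rnf167, which fall short in GC content.

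The palindrome was then looked for in the promoters themselves, with or without a peak. With at most 1 mismatch it occurred in the promoter of 18 of the 82 Rnf genes, or 22%, and of 12.1% of all protein-coding genes. Of these 18, 15 had a promoter peak, or 83.3% (Wilson 95% interval 60.8 to 94.2%), beside 75.4% of all genes with a copy. Of the 64 Rnf genes without a copy, 6 had a peak, or 9.38%, beside 4.81% of all such genes. Among those 6 were Rnf14, Rnf44, Rnf126, Rnf138 and Rnf167.

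The exceptions among the Rnf genes with a copy were Rnf39, Rnf212 and Rnf213, which had no promoter peak. Rnf212 is a factor of meiotic crossing over, and its copy was centred at -62.5 bp from the start, a distance at which other Rnf genes had summits. Rnf213, a very large ATPase and ligase known as the moyamoya disease gene, had its copy at 15.5 bp after the start. In Rnf39 it was at -314.5 bp. All 3 starts were CpG-rich, with CpG ratios of 0.871 at Rnf212, 0.809 at Rnf213 and 0.788 at Rnf39. A match to the palindrome describes the sequence and does not by itself mark a site. Their copies are shown for comparison with the occupied ones, at chr5:108775075-108775104 (Rnf212, G1A, minus strand), chr11:119390100-119390129 (Rnf213, C8G, plus strand) and chr17:36942722-36942751 (Rnf39, G9C, plus strand).
Rnf212: gcggccttgtACGCATGCGCtggaatgaac
Rnf213: gtccgcgcggGCGCATGGGCactgcaggtg
Rnf39: cttgcccacaGCGCATGCCCtggtgctcac

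For the 61 Rnf genes without a promoter peak, the median distance from a start to the nearest summit was 111559 bp. The nearest were Rnf151, at 1913 bp, Rnf208, at 1994 bp, and Rnf224, at 3058 bp. The summit near the testis gene Rnf151 lay in the promoter of Rps2, a ribosomal protein gene, and had a fold of 4.89. That near Rnf208 lay in no promoter and had a fold of 6.35. The summit near Rnf224 had a fold of 80.1, at chr2:25233590-25233932, inside an intron and without a copy of the palindrome within 100 bp. That fold was above the maximum of all promoter peaks, 49.9, and the best copy near the summit had 4 mismatches. Whether NRF1 itself binds there was not tested.

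RING ligases under other names were looked at beside the Rnf genes, in a list of 124 that included Trim, Marchf, Cbl, Siah, Traf and Pcgf genes. The list was chosen by symbol and holds only part of these families, so its share is not that of RING ligases in general. A promoter peak was present at 35 of them, or 28.2% (Wilson 95% interval 21.1 to 36.7%). The share was 13.4% over all protein-coding genes and 24.3% over those with a CpG-rich start. The part of CpG content in the share of the list was not tested. Trim32, a ligase of muscle proteins, had the highest fold of the list, 29.4. Rbx1, the RING subunit of cullin ligases, had one of 12.2. Trim63, the atrophy ligase MuRF1, and its relatives Trim54 and Trim55 had no promoter peak.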

How the data were processed

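The authors mapped single-end reads to mm10 with Bowtie 1.1.2, kept uniquely mapped reads and called peaks with MACS2 2.2.7.1 against input DNA. Pooling of libraries is not described. The methods give a broad-peak option, a blacklist of the human genome and a limit on the false discovery rate, but the list is in narrow-peak form and holds promoter peaks with a −log10 q down to 1.32, and its length is not the number of sites that the study gives. The deposited list gives for each peak a fold enrichment (the ratio of summit signal over control background), p-values and q-values as −log10, and the summit as a distance from the peak start. Because only uniquely mapped reads were kept, signal in promoters with near-identical copies can be lost, and fold enrichment depends on the depth of the control.

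Starts were those of 45756 known RefSeq transcripts on GRCm38, and predicted ones were left out. The members and all gene lists were chosen with earlier results of these data known, and roles, pairs of relatives and the other RING ligases were set by symbol. Named were the members with a promoter peak (1 is counted but not reported here), those with a copy of the motif but no peak, those with a summit within 5000 bp outside the promoter, and partner genes; the rest appear by name only. The exceptions were Rnf39, whose copy lies outside the 250 bp around a start that the rule covers, and Trim32, Rbx1, Trim54, Trim55 and Trim63, which were named after their values were seen. The motif, at most 1 mismatch over 10 bases, was searched on both strands, and since it is its own reverse complement 1 pass covers both. For a gene with several starts or summits the closest pair was used. No test between groups was made, since there is 1 list of peaks, and gene lists are given as counts beside all genes. Python 3.11.15, pysam 0.24.0 and samtools 1.23.1 were used, and motif search and placement of summits were tested on simulated data. The alternatives were other thresholds, promoter windows, starts and motif settings.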

Additional observations from a re-analysis of the deposited data

How the results depend on the processing

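Of 44 alternative values for 6 results, 41 stayed within 1.5 times the count reported or within the 95% interval of the median. The number of Rnf genes with a promoter peak ranged from 19, counting only CpG-rich starts (a setting chosen after seeing the data), to 23, with promoters from 2000 bp before to 500 bp after a start, which added Rnf151 and Rnf208. Rnf32 was lost at a q-value of at most 1e-05 and Rnf14 at a fold enrichment of at least 5. The median fold enrichment ranged from 10.2 to 10.7, the median summit position from -69.0 to -35.0 bp, and the other RING ligases with a peak from 33 to 38. With no mismatch allowed, 1 Rnf peak held the motif in place of 13, beside 10.9% of all promoter peaks. At that setting, 0 Rnf genes had a copy without a peak in place of 3. With at most 2 mismatches, 29 of the 61 Rnf genes without a peak had a copy, since more windows match. The share over all genes was not computed at that setting. Leaving out a replicate could not be done, since there is a single list, named for replicate 1. No paired analysis was possible because there is no second group. As read depth is unknown, a gene without a peak may still hold a weak site.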
